A study of Danio rerio with 12 samples.

Results

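Genes for the protein subunits of the mitochondrial ribosome were followed in whole zebrafish embryos. They were taken by name, as every row of the count table whose symbol begins with mrpl or mrps and a number. This gave 75 of 32520 genes, 47 named for the large subunit and 28 for the small one, and all 75 passed the filter on low counts. The study put 12 libraries of total RNA in 4 groups of 3: tif1γ KD in leflunomide, tif1γ KD in DMSO, control morpholino in leflunomide and control morpholino in DMSO. All embryos were TU wild type, injected with 1 ng of a morpholino at the stage of 1 or 2 cells, kept in 7 µM leflunomide or its DMSO vehicle from 5.3 hours after fertilisation, and frozen at tailbud, at 10 hours. Each library came from 109 pooled embryos. The tif1γ morpholino is of the kind that blocks translation at the start codon of the gene trim33, and leflunomide inhibits dihydroorotate dehydrogenase, the enzyme of pyrimidine synthesis in the inner mitochondrial membrane. Embryos of a clutch were divided between leflunomide and DMSO, but nothing says that the 3 pools of a group came from separate clutches, so p-values measure only the spread between these pools, which may be technical.

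The mitochondrial ribosome translates only the mRNAs of mitochondrial DNA, which encode core subunits of the respiratory chain. Its RNAs also come from mitochondrial DNA, but its proteins are encoded in the nucleus, made in the cytosol and imported. Some of these proteins have counterparts in the bacterial ribosome and are called bacterial-type here, and the others occur only in mitochondria. Fish embryos carry mitochondria and mRNAs from the egg, so the level in a gastrula is the sum of maternal and newly made transcripts. The names follow history rather than position: in the human structure the products of MRPS30 and MRPS18A sit in the large subunit. Roles given for members below come from the human or bacterial proteins. No sequences of these genes were used here.

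Library totals were 27714933 to 29691037 counts in tif1γ KD leflunomide, 28652362 to 28971991 in tif1γ KD DMSO, 27574593 to 29182933 in control leflunomide and 29845686 to 32088082 in control DMSO. The trim33 transcript was higher in tif1γ KD DMSO than in control DMSO by 2.34 ± 0.059 on the log2 scale (SE, adjusted p = 4.98e-15, edgeR's quasi-likelihood test), and a block of translation leaves the RNA level no measure of the knockdown. Of 25 marker genes for the tissues of a tailbud embryo, 24 had a row, and none of these was at 0 in any library, the lowest being the germ cell gene dnd1 at 1.84 CPM. All values are from whole embryos, in which fewer cells of a type and less RNA per cell cannot be told apart. CPM, the unit used for levels, are counts scaled to library size with TMM factors and are not divided by transcript length. The order of genes given next is therefore one of CPM only, and may depend on transcript length. Members ranged from a mean of 1.48 CPM (mrpl58) to 50.8 CPM (mrpl39) over the 12 libraries, with a median of 18.5, and single library counts ran from 14 to 1865. The lowest means of the large subunit were those of mrpl58, mrpl48 (4.33 CPM) and mrpl53 (4.52), and the highest those of mrpl39, mrpl37 (49.1) and mrpl12 (36.9). Those of the small subunit were mrps14 (6.07), mrps18c (6.63) and mrps21 (7.79) at the low end, and mrps25 (44.9), mrps31 (42.2) and mrps6 (35.8) at the high end.

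Summed over the 75 genes, mitochondrial ribosomal protein mRNA was lower in leflunomide than in DMSO with either morpholino. The sum was 1301, 1335 and 1341 CPM in tif1γ KD leflunomide libraries and 1479, 1447 and 1579.6 CPM in tif1γ KD DMSO libraries. It was 1234, 1243 and 1289 CPM in control leflunomide libraries and 1688, 1592 and 1596 CPM in control DMSO libraries. No group overlapped another: control leflunomide was lowest, then tif1γ KD leflunomide, then tif1γ KD DMSO, and control DMSO was highest. Before TMM scaling, the genes took 0.134% to 0.138% of all counts in tif1γ KD leflunomide, 0.145% to 0.155% in tif1γ KD DMSO, 0.127% to 0.132% in control leflunomide and 0.151% to 0.156% in control DMSO. On that scale the DMSO groups overlapped each other and both leflunomide groups stayed below them.

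Both subunits followed this order. The large subunit sum averaged 818 ± 15.4 CPM in tif1γ KD leflunomide, 935 ± 40.8 in tif1γ KD DMSO, 760.0 ± 16.9 in control leflunomide and 997 ± 30.1 in control DMSO (SD, n = 3 each). The small subunit sum averaged 508 ± 10.7 CPM in tif1γ KD leflunomide, 566 ± 29.5 in tif1γ KD DMSO, 496 ± 15.0 in control leflunomide and 628 ± 26.1 in control DMSO. Neighbours in this order overlapped in 2 places, the DMSO groups for the large subunit and the leflunomide groups for the small subunit. The ratio of large to small sums was 1.61 ± 0.0363 in tif1γ KD leflunomide, 1.65 ± 0.0312 in tif1γ KD DMSO, 1.53 ± 0.0322 in control leflunomide and 1.59 ± 0.0351 in control DMSO. Gene by gene, 49 of the 75 had their highest group mean in control DMSO and 26 in tif1γ KD DMSO, and none in a leflunomide group. The lowest group mean was in control leflunomide for 50, in tif1γ KD leflunomide for 23, in tif1γ KD DMSO for mrpl58 and in control DMSO for mrpl51. Neither the highest nor the lowest group was counted over all tested genes.

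**Figure D1:**
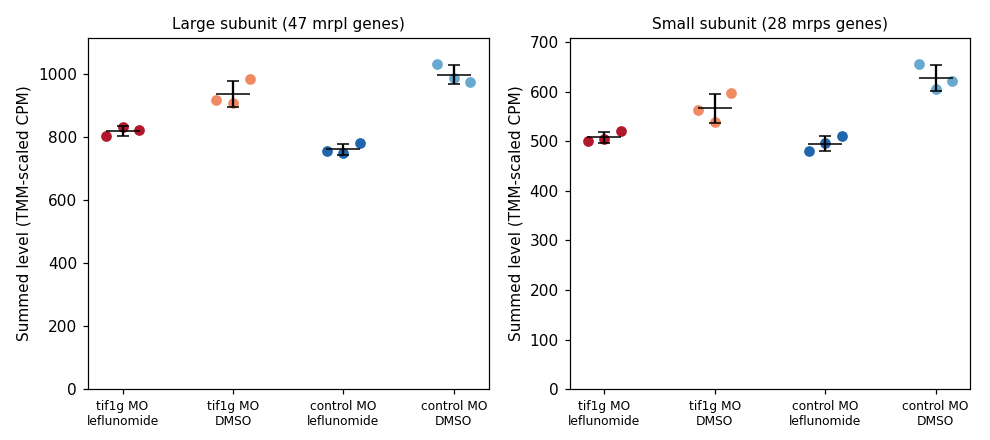
Summed level (y axis, TMM-scaled CPM, from 0) of the large subunit genes (left) and the small subunit genes (right) in each library. Points are libraries, black marks the mean and SD of 3; both sums are highest in control DMSO and lowest in control leflunomide.

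**Figure D2:**
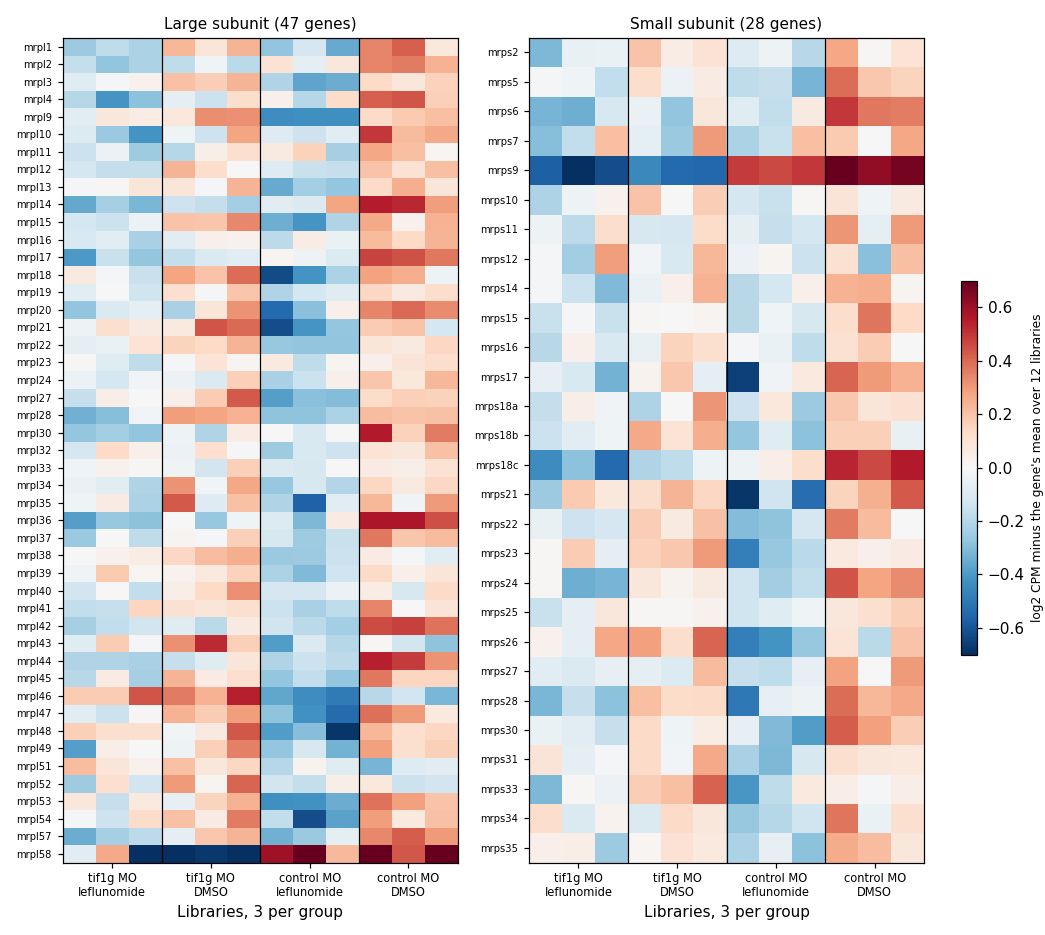
Level of each of the 75 genes in each of the 12 libraries, as log2 CPM minus the mean of that gene over the libraries (colour, cut at -0.7 and 0.7). Rows are genes in order of their number and columns are libraries by group; most rows are red in control DMSO and blue in both leflunomide groups, and mrps9 is blue in all 6 tif1γ KD libraries.

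Leflunomide against DMSO in control embryos asks which transcripts respond to the drug without the knockdown, and here most mitochondrial ribosomal protein genes fell. Of the 75, 55 were called lower and 0 higher at an adjusted p under 0.05, against a background of 21.9% of 21400 tested genes called in either direction and 13.1% called lower. These were 37 of the 47 large subunit genes and 18 of the 28 small subunit genes. The median change was -0.37 on the log2 scale (-0.42 for the large subunit and -0.33 for the small), against 0.02 over all tested genes. The falls were modest, with 10 genes at least 1.5-fold lower. With mrps30 and mrps18a placed in the large subunit, as in the human structure, the counts of calls were 38 of 49 and 17 of 26. In 62 of the 75 genes all control leflunomide libraries lay below all control DMSO libraries, against 19.2% of all tested genes. Here and below, named genes were picked by calls from the same values, so a lack of overlap is no separate support.

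The largest falls in control embryos included 3 genes of bacterial-type proteins. The gene mrps21, for the S21-type protein of the small subunit, had 4.74, 6.90 and 5.27 CPM in control leflunomide libraries, against 8.48, 9.05 and 10.3 CPM in control DMSO libraries. Its change was -0.71 ± 0.15 (SE, adjusted p = 0.00263), and the lowest control DMSO library was above the highest control leflunomide library. The gene mrpl47, for the L29-type protein near the exit of the peptide tunnel, had 14.0, 12.7 and 11.7 CPM in control leflunomide libraries, against 22.3, 21.0 and 17.9 CPM in control DMSO libraries. It changed by -0.67 ± 0.10 (adjusted p = 0.000143) with no overlap of the groups. The gene mrpl36, for the small L36-type protein, had 20.05, 17.3 and 22.3 CPM in control leflunomide libraries, against 31.8, 31.8 and 29.3 CPM in control DMSO libraries. All control DMSO libraries were above all control leflunomide libraries, and the change was -0.64 ± 0.097 (adjusted p = 0.00016). In RefSeq (GRCz12tu assembly) the mrpl47 gene overlaps ndufb5, a complex I subunit gene.

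The other 3 of the 6 largest falls were genes of mitochondria-specific large subunit proteins. The gene mrpl44, whose protein has an RNase III-like fold, had 29.9, 31.2 and 30.5 CPM in control leflunomide libraries, against 50.4, 48.6 and 43.1 CPM in control DMSO libraries. Its change of -0.63 ± 0.076 had the smallest p among the 75 genes in this comparison (adjusted p = 3.06e-05). The gene mrpl42 had 19.2, 18.6 and 17.9 CPM in control leflunomide libraries, against 29.1, 29.5 and 27.5 CPM in control DMSO libraries, a change of -0.63 ± 0.083 (adjusted p = 5.16e-05). The control leflunomide libraries of both genes lay close together and well below every control DMSO library. The gene mrpl53 had 3.31, 3.32 and 3.50 CPM in control leflunomide libraries, against 5.79, 5.42 and 5.11 CPM in control DMSO libraries, with 99 to 172 counts a library. It changed by -0.69 ± 0.16 (adjusted p = 0.00404), again with no overlap, and its span overlaps the gene hpca in RefSeq.

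The remaining calls were spread over all classes of the ribosome. Among bacterial-type large subunit genes, 25 of 29 fell, the others being (log2 change) mrpl9 (-0.61), mrpl20 (-0.61), mrpl18 (-0.59), mrpl1 (-0.53), mrpl21 (-0.52), mrpl15 (-0.50), mrpl27 (-0.48), mrpl28 (-0.47), mrpl17 (-0.46), mrpl13 (-0.45), mrpl10 (-0.44), mrpl3 (-0.43), mrpl14 (-0.42), mrpl30 (-0.41), mrpl22 (-0.37), mrpl4 (-0.35), mrpl34 (-0.31), mrpl12 (-0.31), mrpl32 (-0.29), mrpl2 (-0.28), mrpl24 (-0.28), mrpl16 (-0.25) and mrpl19 (-0.25). Among mitochondria-specific large subunit genes, 13 of 20 fell, with mrpl48 (-0.61), mrpl57 (-0.57), mrpl54 (-0.57), mrps30 (-0.54), mrpl45 (-0.46), mrpl37 (-0.44), mrpl49 (-0.42), mrpl41 (-0.34), mrpl39 (-0.31) and mrpl38 (-0.21) beside those above. In the small subunit, 8 of 16 bacterial-type genes fell, with mrps24 (-0.54), mrps17 (-0.49), mrps28 (-0.48), mrps18c (-0.47), mrps6 (-0.47), mrps5 (-0.47) and mrps15 (-0.33) beside mrps21. Of the 10 mitochondria-specific small subunit genes 9 fell, at mrps22 (-0.44), mrps26 (-0.43), mrps35 (-0.37), mrps23 (-0.36), mrps34 (-0.36), mrps27 (-0.33), mrps18b (-0.31), mrps31 (-0.31) and mrps25 (-0.20). The 20 genes without a call ran from -0.44 to 0.08. They were mrpl11, mrpl23, mrpl33, mrpl35, mrpl40, mrpl43, mrpl46, mrpl51, mrpl52 and mrpl58 of the large subunit by name, and mrps2, mrps7, mrps9, mrps10, mrps11, mrps12, mrps14, mrps16, mrps18a and mrps33. Of these only mrpl51 had a value above 0, and the decoding site gene mrps12 had 8.49, 8.82 and 7.85 CPM in control leflunomide libraries, against 9.39, 7.11 and 10.1 CPM in control DMSO libraries, which overlap. A fit with the replicate number as a block called 59 members (78.7%) and 6709 of all 21400 tested genes. It added calls of mrps11 (-0.30, adjusted p = 0.00681), mrpl35 (-0.45, adjusted p = 0.0208), mrps9 (-0.20, adjusted p = 0.0403) and mrps2 (-0.23, adjusted p = 0.0454).

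The count of these falls depended on scaling and on the libraries included, and no called member changed direction under any alternative. With library totals in place of TMM factors 28 members were called, all lower, against 22.2% of all tested genes, and the members' median was -0.24. That scaling moved the median of all tested genes to 0.16 and turned the split of calls over all genes to 3538 higher and 1220 lower, against 1899 higher and 2796 lower with TMM. Control DMSO libraries had the largest totals and the smallest TMM factors (0.926 to 0.958, against 1.03 to 1.05 in control leflunomide). Without replicate number 1, 2 or 3 in all groups 23, 30 or 40 members were called, all lower. Calls over all tested genes also dropped in these fits, from 4695 to between 2114 and 3398. Leaving out control leflunomide replicate 1, 2 or 3 ended 18, 12 or 9 of the 55 calls, leaving out control DMSO replicate 1, 2 or 3 ended 16, 10 or 11, and the adjusted p-values of the lost calls reached 0.215. Leaving out 1 of the tif1γ KD libraries ended 1 to 4. The nuclear RNA malat1 stood at 4882 to 5451 CPM in control leflunomide and 2906 to 3556 CPM in control DMSO. Summed markers of the yolk syncytial layer (3 genes) stood at 3152 to 3337 CPM in control leflunomide and 3632 to 4223 CPM in control DMSO, and those of the enveloping layer (4 genes) at 7480.5 to 7694 CPM in control leflunomide and 8362 to 9307 CPM in control DMSO. The enveloping layer sum was mostly krt4 (means of 5146 against 6123 CPM), and krt5 hardly differed (1613 against 1625 CPM). Markers of other tissues also differed, such as sox32 (5.96 against 12.5 CPM) and noto (19.8 against 28.2 CPM). Means of sox2, tp63 and he1.2 were higher in control leflunomide. Their part in the result was not tested.

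**Figure D3:**
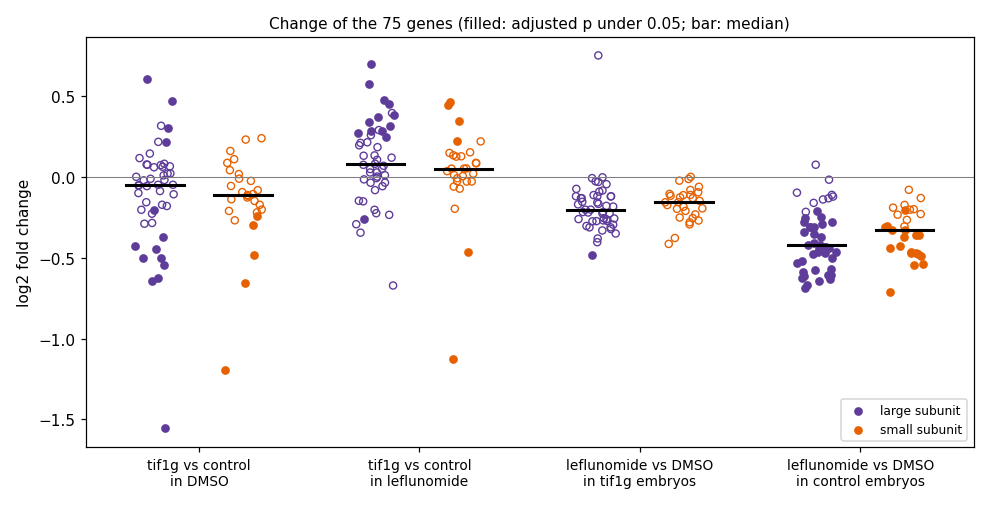
Log2 fold change (y axis) of each of the 75 genes in 4 comparisons (x axis), by subunit as named. Filled points passed an adjusted p under 0.05, open points did not, and black bars are medians; the cloud sits lowest for leflunomide in control embryos, with medians of -0.42 and -0.33.

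The tif1γ knockdown in DMSO, which asks which transcripts depend on trim33, moved single members strongly and the family as a whole little. Of the 75 genes 15 were called lower and 4 higher, or 25.3%, below the 32.8% of all tested genes called (17.2% lower and 15.6% higher). All knockdown libraries lay below all controls in 23 of the 75 and above them in 8, against 22% and 21.7% of all tested genes. The median change was -0.08 (-0.05 for the large and -0.11 for the small subunit), against 0.00 over all tested genes. With library totals as the scaling it was -0.01, with 12 members called lower and 5 higher, against 33.6% of all tested genes. That scaling gave 4306 higher and 2888 lower calls over all genes, against 3330 and 3682 with TMM. By class, 6 of 29 bacterial-type large subunit genes fell and 0 rose, 5 of 20 mitochondria-specific ones fell and 4 rose, and 4 of 16 bacterial-type small subunit genes fell and 0 rose. None of the 10 mitochondria-specific small subunit genes passed in this fit, with values of -0.17 to 0.24. With the replicate number as a block 27 members were called (36%), and 9031 of all 21400 tested genes. The 8 added members include 2 of this class, mrps26 (0.23, adjusted p = 0.0112) and mrps27 (-0.17, adjusted p = 0.0482). The gene mrps26 was also called with library totals. The others were mrpl20 (-0.30, adjusted p = 0.0118), mrps5 (-0.20, adjusted p = 0.0221), mrps15 (-0.21, adjusted p = 0.0221), mrpl16 (-0.20, adjusted p = 0.0224), mrpl57 (-0.23, adjusted p = 0.0334) and mrps11 (-0.22, adjusted p = 0.0411). Summed markers of the yolk syncytial layer stood at 1997 to 2454 CPM in tif1γ KD DMSO and 3632 to 4223 CPM in control DMSO, and those of the enveloping layer at 6992 to 7527 CPM in tif1γ KD DMSO and 8362 to 9307 CPM in control DMSO. The yolk syncytial layer sum was mostly apobb.1, with means of 2130 CPM in tif1γ KD DMSO and 3904 CPM in control DMSO. Of its other genes apoa2 was also lower after the knockdown (20.7 against 58.5 CPM). The gene hnf4a went the other way (88.4 against 53.6 CPM). Markers of other tissues differed in both directions, such as sox32 (19.3 against 12.5 CPM) and ctslb (4.15 against 9.87 CPM). The malat1 RNA stood at 4017 to 4381 CPM in tif1γ KD DMSO and 2906 to 3556 CPM in control DMSO. Their part in the result was not tested.

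The small subunit gene mrps9, for an S9-type protein near the peptidyl site, had the smallest p. It had 13.8, 12.9 and 12.9 CPM in tif1γ KD DMSO libraries, against 31.8, 29.0 and 30.0 CPM in control DMSO libraries. Its change was -1.20 ± 0.081 (SE, adjusted p = 4.8e-09, 3 of 3 replicate numbers lower), and the groups lay far apart. The largest fall in size was that of mrpl58, whose protein is a release-factor-like peptidyl-tRNA hydrolase that frees stalled ribosomes in human cells. It had 0.490, 0.833 and 0.811 CPM in tif1γ KD DMSO libraries, against 2.15, 1.80 and 2.35 CPM in control DMSO libraries. Its counts were low, 14 to 68 a library, and the change was -1.56 ± 0.32 (adjusted p = 0.000958) with no overlap.

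The next falls by size in DMSO were those of the bacterial-type genes mrps18c, mrpl14, mrpl36 and mrpl17. The S18-type gene mrps18c had 5.56, 5.69 and 6.28 CPM in tif1γ KD DMSO libraries, against 9.33, 8.87 and 9.46 CPM in control DMSO libraries, a change of -0.66 ± 0.13 (adjusted p = 0.000729). The L14-type gene mrpl14, whose protein lies at the subunit interface, had 5.46, 5.38 and 5.12 CPM in tif1γ KD DMSO libraries, against 8.85, 8.69 and 7.39 CPM in control DMSO libraries, a change of -0.64 ± 0.14 (adjusted p = 0.00204). In each of these genes all tif1γ KD libraries were below all controls. The gene mrpl36 had 21.5, 17.8 and 21.0 CPM in tif1γ KD DMSO libraries, against the control DMSO values given above, and changed by -0.62 ± 0.097 (adjusted p = 7.62e-05). The L17-type gene mrpl17 had 9.03, 9.48 and 9.63 CPM in tif1γ KD DMSO libraries, against 14.1, 13.8 and 13.1 CPM in control DMSO libraries, a change of -0.54 ± 0.11 (adjusted p = 0.000642). The other genes that fell were mrpl42 (-0.50 ± 0.082), mrpl44 (-0.50 ± 0.076), mrps6 (-0.48 ± 0.092), mrpl2 (-0.45 ± 0.072), mrpl30 (-0.43 ± 0.096), mrpl4 (-0.37 ± 0.12), mrps24 (-0.30 ± 0.10), mrps30 (-0.24 ± 0.091) and mrpl37 (-0.21 ± 0.075). Among them mrpl42, mrpl44, mrps30 and mrpl37 encode mitochondria-specific proteins. The protein of mrpl2 belongs to the peptidyl transferase centre and that of mrpl4 lines the exit tunnel.

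The 4 genes that rose encode mitochondria-specific proteins of the large subunit, and those of mrpl46 and mrpl38 lie in its central protuberance. The gene mrpl46 had 23.2, 21.3 and 26.2 CPM in tif1γ KD DMSO libraries, against 15.7, 16.4 and 14.4 CPM in control DMSO libraries. It rose by 0.60 ± 0.10 (adjusted p = 0.000152), with every knockdown library above every control. The gene mrpl43 had 6.19, 7.12 and 5.57 CPM in tif1γ KD DMSO libraries, against 4.98, 4.54 and 4.07 CPM in control DMSO libraries, a change of 0.47 ± 0.16 (adjusted p = 0.0278). The gene mrpl51 had 29.3, 26.9 and 28.2 CPM in tif1γ KD DMSO libraries, against 20.3, 23.9 and 24.2 CPM in control DMSO libraries, a change of 0.30 ± 0.088 (adjusted p = 0.0126), and it overlaps tfpt in RefSeq. The gene mrpl38 had 34.9, 36.6 and 37.6 CPM in tif1γ KD DMSO libraries, against 32.8, 31.2 and 30.0 CPM in control DMSO libraries, a change of 0.21 ± 0.068 (adjusted p = 0.0211). In these 3 genes the knockdown libraries were also above the controls without overlap. Their calls and those of mrpl4, mrps24, mrpl37 and mrps30 were lost without some single library of the groups compared. Without control DMSO replicate 1 the calls of mrpl51, mrpl4, mrps24, mrpl37 and mrps30 were lost (adjusted p 0.0696 to 0.206), without control DMSO replicate 2 those of mrpl4, mrpl43 and mrps30 (0.059 to 0.0798), and without control DMSO replicate 3 those of mrpl38, mrpl43, mrps24 and mrpl37 (0.058 to 0.105). Without tif1γ KD DMSO replicate 1 those of mrpl4, mrpl43, mrps24 and mrpl37 were lost (0.0565 to 0.12), without replicate 2 those of mrpl4, mrpl38, mrpl43, mrps24, mrpl37 and mrps30 (0.0567 to 0.164), and without replicate 3 those of mrpl38, mrps24 and mrps30 (0.0694 to 0.0961). The mrps30 call was also lost without any 1 tif1γ KD leflunomide library or control leflunomide replicate 2 (0.0527 to 0.0603). The other 12 calls held under all 22 alternatives. The 56 genes without a call ran from -0.29 to 0.32.

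With leflunomide present, the knockdown raised more members than it lowered. Of the 75 genes 16 were called higher and 3 lower, or 25.3%, a share near the 23.8% of all tested genes (12% higher and 11.8% lower). These were 12 large subunit genes higher and 1 lower, and 4 small subunit genes higher and 2 lower. This comparison shares the control leflunomide libraries with that of leflunomide against DMSO in control embryos, so the 2 are not separate results. Of the 19 genes called here, 17 were among the 55 called lower there. That overlap was not counted over all tested genes. All knockdown libraries lay above all controls in 21 of the 75 and below them in 7, against 20.2% and 19.9% of all tested genes. The median was 0.07, against 0.01 over all tested genes. With library totals it was 0.06, with 15 members called higher and 3 lower, against 23.4% of all tested genes. The number of calls was 12 without control leflunomide replicate 1 or without tif1γ KD leflunomide replicate 3, and 5 to 9 without a whole replicate number. The genes mrps9, mrpl46 and mrpl9 were called under all 22 alternatives. Of the other 16 calls that of mrps21 was lost most often, in 12 of 22, with an adjusted p of up to 0.273. Leaving out tif1γ KD leflunomide replicate 1, 2 or 3 ended 4, 3 or 7 of the 19 calls, and leaving out control leflunomide replicate 1, 2 or 3 ended 7, 4 or 5, with adjusted p-values of up to 0.188. The calls of mrps21 and mrps31 were also lost when some 1 DMSO library was left out (0.0502 to 0.0526). Summed markers of the yolk syncytial layer stood at 2240 to 2442 CPM in tif1γ KD leflunomide and 3152 to 3337 CPM in control leflunomide. The sum was mostly apobb.1, with means of 2254 CPM in tif1γ KD leflunomide and 3145 CPM in control leflunomide. Of its other genes apoa2 was also lower after the knockdown (20.5 against 41.1 CPM) and hnf4a was higher (75.8 against 42.2 CPM). Markers of other tissues differed in both directions, such as sox32 (14.2 against 5.96 CPM) and ctslb (3.98 against 6.77 CPM). The part of these markers in the result was not tested.

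The largest rise was again that of mrpl46. It had 20.3, 20.3 and 24.4 CPM in tif1γ KD leflunomide libraries, against 14.0, 13.3 and 12.8 CPM in control leflunomide libraries, a change of 0.70 ± 0.10 (SE, adjusted p = 5.58e-05), with a wide gap between the groups. The gene mrpl48, whose protein also belongs to the central protuberance, had 4.78, 4.59 and 4.59 CPM in tif1γ KD leflunomide libraries, against 3.24, 3.45 and 2.65 CPM in control leflunomide libraries, a change of 0.58 ± 0.17 (adjusted p = 0.0198) on 75 to 163 counts a library. The L21-type gene mrpl21 had 14.7, 16.3 and 15.8 CPM in tif1γ KD leflunomide libraries, against 9.82, 11.3 and 12.5 CPM in control leflunomide libraries, a change of 0.48 ± 0.12 (adjusted p = 0.0079). None of these groups overlapped. The mitochondria-specific small subunit gene mrps26 had 24.8, 23.2 and 29.2 CPM in tif1γ KD leflunomide libraries, against 17.4, 18.2 and 20.2 CPM in control leflunomide libraries, a change of 0.47 ± 0.11 (adjusted p = 0.0049). The L9-type gene mrpl9 had 16.7, 18.7 and 18.3 CPM in tif1γ KD leflunomide libraries, against 13.1, 13.1 and 13.2 CPM in control leflunomide libraries, a change of 0.45 ± 0.091 (adjusted p = 0.00132). Its control libraries were nearly identical and all below the knockdown libraries. The gene mrps21 had 6.39, 8.66 and 8.02 CPM in tif1γ KD leflunomide libraries, against 4.74, 6.90 and 5.27 CPM in control leflunomide libraries, which overlap, and changed by 0.45 ± 0.16 (adjusted p = 0.0437).

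The other 10 genes that rose were mrpl18 (0.38 ± 0.11), mrpl54 (0.37 ± 0.11), mrps23 (0.35 ± 0.11), mrpl47 (0.34 ± 0.10), mrpl13 (0.31 ± 0.092), mrpl3 (0.29 ± 0.073), mrpl39 (0.28 ± 0.069), mrpl22 (0.27 ± 0.077), mrpl38 (0.25 ± 0.069) and mrps31 (0.22 ± 0.077). Those that fell were mrps9, mrps18c and mrpl2. The gene mrps9 had 12.7, 11.3 and 12.3 CPM in tif1γ KD leflunomide libraries, against 26.5, 26.0 and 26.6 CPM in control leflunomide libraries, a change of -1.13 ± 0.082 (adjusted p = 1.31e-08). The gene mrps18c had 4.74, 5.27 and 4.41 CPM in tif1γ KD leflunomide libraries, against 6.28, 6.64 and 7.00 CPM in control leflunomide libraries, a change of -0.46 ± 0.13 (adjusted p = 0.0154). The gene mrpl2 had 31.3, 29.0 and 30.2 CPM in tif1γ KD leflunomide libraries, against 37.7, 33.5 and 37.1 CPM in control leflunomide libraries, a change of -0.26 ± 0.073 (adjusted p = 0.0137). In all 3 the knockdown libraries were below the controls without overlap. A fit with the replicate number as a block called 23 members (30.7%) and 7215 of all 21400 tested genes. It added calls of mrpl15 (0.22, adjusted p = 0.0264), mrps6 (-0.20, adjusted p = 0.0298), mrpl30 (-0.22, adjusted p = 0.0347) and mrpl4 (-0.29, adjusted p = 0.0355). The 56 genes without a call in the fit without the block ran from -0.67 to 0.40, and the lowest of them, mrpl58, had 1.26, 1.60 and 0.735 CPM in tif1γ KD leflunomide libraries, against 2.00, 2.18 and 1.56 CPM in control leflunomide libraries, with a single knockdown library inside the range of the controls.

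The knockdown comparisons in DMSO and in leflunomide share no library, but samples with the same replicate number deviated together. The 2 comparisons had 5 called genes in common, 5 of 19 in each: mrps9, mrps18c and mrpl2 lower, and mrpl46 and mrpl38 higher. For these genes the changes in DMSO and in leflunomide were -1.20 and -1.13 (mrps9), -0.66 and -0.46 (mrps18c), -0.45 and -0.26 (mrpl2), 0.60 and 0.70 (mrpl46), and 0.21 and 0.25 (mrpl38). Over all 75 genes, 25 had values above 0 in both, 23 below 0 in both, 26 below 0 in DMSO and above 0 in leflunomide, and 1 the reverse. Neither this split nor the overlap of calls was counted over all tested genes.

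**Figure D4:**
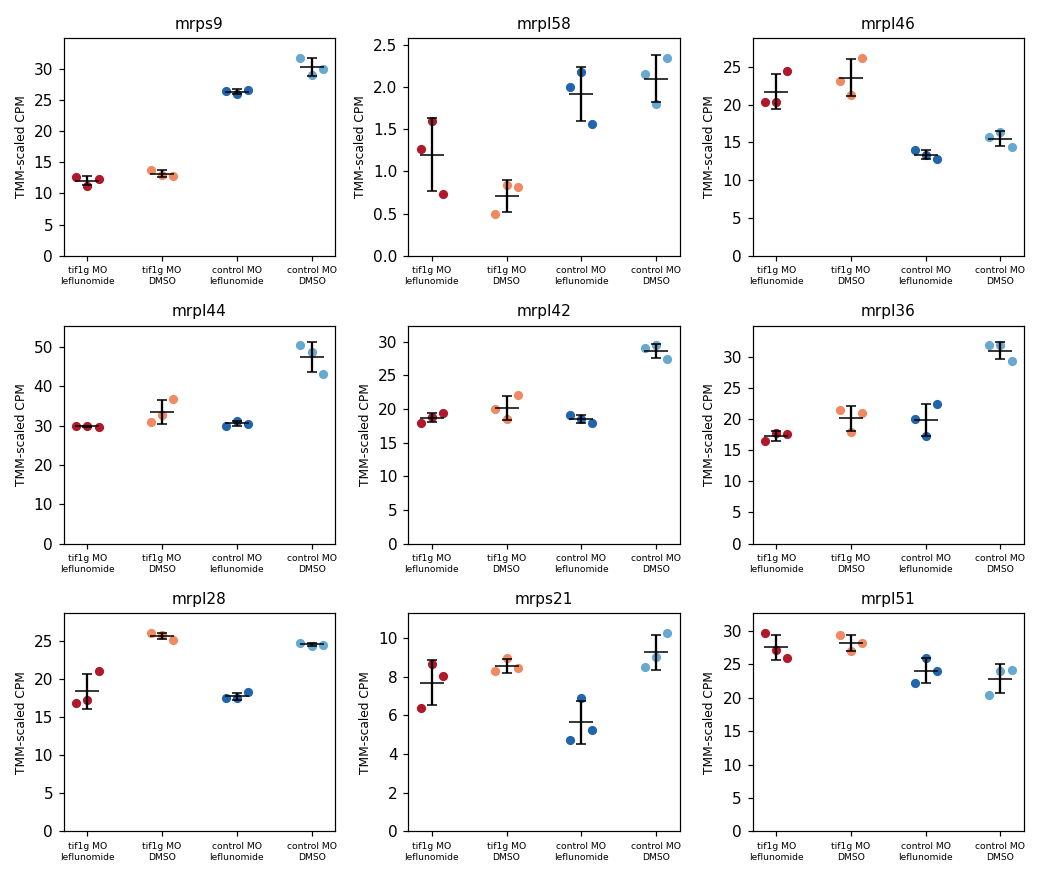
Level (y axis, TMM-scaled CPM, from 0) of 9 named genes in each library of the 4 groups (MO, morpholino; tif1g MO, tif1γ KD). Points are libraries and black marks the mean and SD of 3; mrps9 is low and mrpl46 high in all 6 tif1γ KD libraries, while mrpl44, mrpl42 and mrpl36 are higher in each control DMSO library than in the 9 others.

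Leflunomide against DMSO in tif1γ KD embryos asks what the inhibitor does once trim33 is blocked. Of the 75 genes 1 was called, mrpl28, against 0.617% of all tested genes. All leflunomide libraries lay below all DMSO libraries in 26 of the 75 and above them in 0, against 10.1% and 9.1% of all tested genes. The L28-type gene mrpl28 had 16.8, 17.3 and 21.0 CPM in tif1γ KD leflunomide libraries, against 26.0, 25.7 and 25.1 CPM in tif1γ KD DMSO libraries. It changed by -0.48 ± 0.087 (SE, adjusted p = 0.026), with no overlap, although leflunomide replicate 3 stood well above the other two. In control embryos its values were 17.4, 17.5 and 18.2 CPM in leflunomide and 24.7, 24.4 and 24.5 CPM in DMSO, a change of -0.47 ± 0.087 (adjusted p = 0.000794). The mrpl28 call in tif1γ KD embryos was lost in 9 of 22 alternatives, with an adjusted p of up to 0.309. These include leaving out any single tif1γ KD library other than leflunomide replicate 3, with adjusted p-values of 0.0651 to 0.168.

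Values below 0 were nonetheless common in tif1γ KD embryos. Of the 75 genes 73 had one, with a median of -0.18, against 10284 of the 21400 tested genes and a median of 0.01. Related sets leaned the same way, with 76 of 91 nuclear respiratory chain genes (median -0.14) and 27 of 34 ribosome assembly genes (-0.12) below 0. Cytosolic ribosomal protein genes did so less, with 49 of 83 below 0 (-0.01). With library totals 66 of the 75 and 8262 of all tested genes had one. That scaling gave 51 higher and 15 lower calls over all genes, against 41 and 91 with TMM. The malat1 RNA stood at 4719 to 5355 CPM in tif1γ KD leflunomide and 4017 to 4381 CPM in tif1γ KD DMSO, and its part in the result was not tested. In control embryos the median was -0.37, and 72 of the 75 genes had a value below 0 in both kinds of embryo. That joint share was not counted over all tested genes. The 2 kinds share no library, but samples with the same replicate number deviated together. A fit with that number as a block called 12 of the 75 (16%), all lower, against 7.09% of all tested genes. These were mrpl28 (-0.48 ± 0.081), mrps28 (-0.42 ± 0.096), mrpl1 (-0.41 ± 0.085), mrpl57 (-0.38 ± 0.092), mrps33 (-0.38 ± 0.11), mrpl15 (-0.35 ± 0.075), mrpl18 (-0.32 ± 0.097), mrpl47 (-0.31 ± 0.091), mrpl34 (-0.30 ± 0.092), mrps18b (-0.29 ± 0.085), mrpl12 (-0.27 ± 0.065) and mrpl3 (-0.22 ± 0.072), with adjusted p-values of 0.000328 to 0.049. The protein of mrpl12 forms the stalk that recruits translation factors, and in human cells it also binds the mitochondrial RNA polymerase. The gene mrpl12 had 33.7, 32.7 and 32.7 CPM in tif1γ KD leflunomide libraries, against 43.4, 39.9 and 36.6 CPM in tif1γ KD DMSO libraries, which do not overlap. In control embryos it had 34.5, 32.9 and 32.8 CPM in leflunomide and 42.1, 39.3 and 42.5 CPM in DMSO.

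Whether the knockdown altered the response to leflunomide was tested as an interaction, the change with leflunomide in tif1γ KD embryos minus that in controls. Without the replicate block no gene of the 21400 was called (0%), members included, while 16 members and 2560 genes had an unadjusted p under 0.05, and DESeq2 called 1 member, mrpl44, and 343 genes (5.51% of those it gave an adjusted p). With the block 5 members (6.67%) were called, all with a less negative change in tif1γ KD embryos, a share near the 4.99% of all tested genes. The interaction was 0.47 ± 0.10 for mrpl44 (adjusted p = 0.00646), 0.52 ± 0.11 for mrpl42 (0.00733) and 0.40 ± 0.10 for mrps30 (0.0197). It was 0.43 ± 0.12 for mrpl36 (0.0333) and 0.35 ± 0.10 for the S5-type gene mrps5 (0.0371). Of these, mrpl44, mrpl42 and mrps30 are mitochondria-specific and lie in the large subunit of the human ribosome.

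The levels of these genes show the pattern by which they were called, and are no separate support for it. The gene mrpl44 had 29.9, 29.9 and 29.6 CPM in tif1γ KD leflunomide and 30.9, 32.7 and 36.7 CPM in tif1γ KD DMSO, against 29.9, 31.2 and 30.5 CPM in control leflunomide and 50.4, 48.6 and 43.1 CPM in control DMSO. Control DMSO stood apart, and tif1γ KD DMSO reached above the leflunomide groups in 2 of 3 libraries. The gene mrpl42 had 18.0, 18.8 and 19.4 CPM in tif1γ KD leflunomide and 19.98, 18.6 and 22.1 CPM in tif1γ KD DMSO, against the control values given above. The gene mrps30 had 25.8, 25.3 and 23.8 CPM in tif1γ KD leflunomide, 29.2, 26.1 and 27.6 in tif1γ KD DMSO, 25.6, 21.5 and 20.3 in control leflunomide and 35.7, 32.5 and 30.0 in control DMSO. The gene mrps5 had 28.2, 27.9 and 25.3 CPM in tif1γ KD leflunomide, 30.9, 27.6 and 29.6 in tif1γ KD DMSO, 25.2, 25.4 and 22.7 in control leflunomide and 37.3, 32.4 and 31.7 in control DMSO. In each of these genes the 3 control DMSO libraries were above all 9 others, an order that was not counted over all tested genes. Over all 75 genes the interaction had a median of 0.19, with 66 values above 0. Over the 21400 tested genes the median was 0.01, with 11153 values above 0. This lean was not particular to the members. Values above 0 were found in 81 of 83 cytosolic ribosomal protein genes (median 0.28) and 84 of 91 nuclear respiratory chain genes (median 0.27). With library totals as the scaling the members' median was 0.11, with 54 values above 0. Over all tested genes it was then -0.07, with 8255 values above 0.

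The mitochondrial ribosome also holds proteins whose genes have other symbols, and 5 of these were followed, dap3, ptcd3, aurkaip1, chchd1 and gadd45gip1. All 5 fell with leflunomide in control embryos, from -0.58 ± 0.083 (aurkaip1, adjusted p = 9.6e-05) to -0.26 ± 0.089 (dap3, adjusted p = 0.0435). Of all tested genes 13.1% were called lower. With library totals as the scaling 2 of the 5 were called lower, against 1220 of all 21400 tested genes. The gene aurkaip1 also fell with leflunomide in tif1γ KD embryos (-0.39 ± 0.083, adjusted p = 0.0428), where 0.617% of all tested genes were called. With library totals 0 of the 5 were called in tif1γ KD embryos, and 66 of all 21400 tested genes. The gene ptcd3, for a pentatricopeptide repeat protein of the small subunit, fell after the knockdown, with -1.06 ± 0.091 in DMSO at an adjusted p of 9.25e-08 and -0.79 ± 0.091 in leflunomide at an adjusted p of 4.12e-06. The gene gadd45gip1 fell after the knockdown in DMSO (-0.26 ± 0.091, adjusted p = 0.0372) and rose in leflunomide (0.26 ± 0.092, adjusted p = 0.0462). The knockdown calls were 2 of the 5 in DMSO and 2 in leflunomide, against 32.8% and 23.8% of all tested genes. With library totals as the scaling, 1 of the 5 was called lower and 0 higher in each of these comparisons. The rise of gadd45gip1 in leflunomide was therefore not called on that scale. Of all tested genes, 33.6% were then called in DMSO and 23.4% in leflunomide.

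Genes for assembly of the mitochondrial ribosome and handling of its RNA were called in both directions. Of 34 tested, 10 fell and 0 rose with leflunomide in control embryos (median -0.25, and 6 fell and 1 rose with library totals), 5 rose and 2 fell after the knockdown in DMSO (0.03), and 8 rose and 2 fell after the knockdown in leflunomide (0.12). In the same order these are 29.4%, 20.6% and 29.4% of the list, against 21.9%, 32.8% and 23.8% of all tested genes. With leflunomide in control embryos the falls with the smallest p were those of c1qbp, a matrix protein that binds RNA (-0.54 ± 0.055), the protease gene lonp1 (-0.45 ± 0.060), the helicase gene ddx28 (-0.53 ± 0.082) and mpv17l2 (-0.43 ± 0.072). After the knockdown in DMSO ddx28 (-0.67 ± 0.083) and the protease gene spg7 (-0.73 ± 0.12) fell, and the transcription factor gene tfb2m (0.43 ± 0.10) and the helicase gene dhx30 (0.36 ± 0.099) rose. After the knockdown in leflunomide c1qbp (0.43 ± 0.055), the rRNA methyltransferase gene nsun4 (0.50 ± 0.12) and tfb2m (0.41 ± 0.10) rose, and spg7 fell (-0.79 ± 0.12). With leflunomide in tif1γ KD embryos edgeR's quasi-likelihood test called lonp1 of these genes (-0.29 ± 0.060, adjusted p = 0.0417), 6 of the 34 had an unadjusted p under 0.05, and DESeq2 called 2. With library totals as the scaling 0 of the 34 were called in that comparison.

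A list of 18 genes held mitochondrial translation factors and some other proteins, such as oxa1l and letm1, that are not translation factors. Of these 18, 3 fell with leflunomide in control embryos. They were those of the elongation factors tufm (-0.51 ± 0.060, adjusted p = 2.89e-05) and tsfm (-0.41 ± 0.087) and of the inner membrane insertase oxa1l (-0.44 ± 0.079). None was called with leflunomide in tif1γ KD embryos (edgeR's quasi-likelihood test; 2 of 18 had an unadjusted p under 0.05, and DESeq2 called 1). After the knockdown in DMSO letm1 (0.28 ± 0.068) and the ribosome rescue gene mtrfr (0.50 ± 0.15) rose, and mss51 (-0.83 ± 0.26) and mtres1 (-0.48 ± 0.16) fell. After the knockdown in leflunomide tufm (0.31 ± 0.060), tsfm (0.35 ± 0.087) and letm1 (0.26 ± 0.068) rose. The share of this list called was 16.7% for leflunomide in control embryos, 22.2% for the knockdown in DMSO and 16.7% for the knockdown in leflunomide, in each case below the 21.9%, 32.8% and 23.8% of all tested genes.

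Cytosolic ribosomal protein genes and nuclear respiratory chain genes were set beside those of the mitochondrial ribosome. With leflunomide in control embryos, lower calls were made for 55 of 75 mitochondrial ribosomal, 75 of 83 cytosolic ribosomal and 62 of 91 respiratory chain genes, with medians of -0.37, -0.29 and -0.41. Of all tested genes 13.1% were called lower in that comparison. With library totals as the scaling the lower calls were 28, 30 and 38 in the same sets, and 1220 of all 21400 tested genes. After the knockdown in DMSO, 15 of 75 mitochondrial ribosomal, 58 of 83 cytosolic ribosomal and 37 of 91 respiratory chain genes were called lower. Of all tested genes 17.2% were called lower, a share near that of the mitochondrial ribosomal genes. With library totals the lower calls after the knockdown were 12, 40 and 27, and 2888 of all 21400 tested genes. The 13 mRNAs of mitochondrial DNA, the templates of this ribosome, had medians on the other side of 0 in both of these comparisons. In control embryos 6 of the 13 rose with leflunomide and 0 fell (median 0.18), against 8.87% of all tested genes called higher. After the knockdown in DMSO 9 rose and 0 fell (median 0.32), against 15.6% of all tested genes called higher. With leflunomide in tif1γ KD embryos 11 of the 13 were below 0 (median -0.03), on the side of the members, against 10284 of all 21400 tested genes. After the knockdown in leflunomide 12 of the 13 were above 0, as were 51 of the 75 members, against 10848 of all tested genes. Their summed level was 10328 ± 1043 CPM in tif1γ KD leflunomide, 10549.9 ± 794 in tif1γ KD DMSO, 9637 ± 583 in control leflunomide and 8563 ± 476 in control DMSO (SD, n = 3). Leflunomide in control embryos and the knockdown in DMSO are comparisons that share the control DMSO libraries, and no difference between families was tested.

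**Figure D5:**
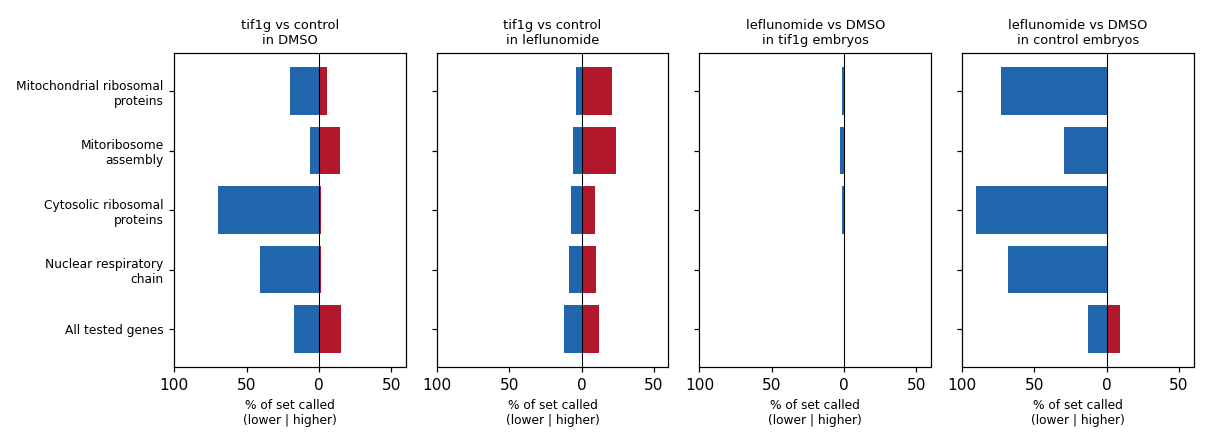
Percent of the tested genes of each set (x axis) called lower (blue, to the left of 0) or higher (red, to the right) at an adjusted p under 0.05, in 4 comparisons (panels). The bar for leflunomide in control embryos reaches 73.3% of mitochondrial ribosomal protein genes, against 21.9% of all tested genes in both directions.

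By the RefSeq gene table, all 75 members matched a gene by symbol and 23 overlap the span of another gene, a protein-coding gene in 18 cases. The 18 with a protein-coding neighbour are mrpl2, mrpl4, mrpl9, mrpl11, mrpl15, mrpl16, mrpl22, mrpl24, mrpl33, mrpl34, mrpl37, mrpl40, mrpl45, mrpl47, mrpl51, mrpl53, mrps18b and mrps35, and the other 5, mrps16, mrps17, mrps22, mrps23 and mrps26, overlap long noncoding RNAs. The libraries were directional, but no source used here states the strand setting of the counting, so the counts of these genes may hold reads of their neighbours.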

How the data were processed

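Total RNA of whole embryos, depleted of ribosomal RNA, was sequenced in 12 directional libraries. The authors deposited raw read counts per Ensembl gene (32520 genes). Per the labels, the counter was htseq-count. The submitters' processing notes name the build GRCz11 and, without their roles, cutadapt, FastQC, HTSeq, Cufflinks 2.2.1 and TopHat2 2.0.11. No source used here states the strand setting or the annotation release. Symbols, in lower case, came from a name table covering 29201 genes.

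From the counts, filterByExpr of edgeR 4.0.16 (R 4.3.3) kept 21400 of 30339 genes with a count. With TMM factors, 1 robust quasi-likelihood fit of 4 group means over 12 libraries (biological coefficient of variation 0.113) gave the 5 comparisons, with Benjamini-Hochberg adjustment over 21400 genes. A gene counted as called when its adjusted p was under 0.05, whatever its fold. SE is the log2 change over the root of F. The fit was tested on simulated counts drawn without any effect of the replicate number. That test therefore cannot speak to the pairing seen in the data. Alternatives were library totals, RLE factors, no filter, at least 50 counts in 3 libraries, DESeq2 1.42.0, the 2 groups alone, the replicate number as a block, and leaving out each library or number. Every called member is named, with values per library for up to 6 rises and 6 falls. Members and lists were chosen with earlier results of these data known, and the split into bacterial-type and mitochondria-specific proteins is the standard nomenclature of the human ribosome.

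Replicate pools differed by a chi-square per degree of freedom of 7.09 to 15.0, taken over all genes with at least 20 counts in the pair. Over these genes together the spread was larger than counting error alone gives. This need not hold for each gene, and counting error weighs more at low counts, as in mrpl58 (14 to 68 a library). Samples with the same replicate number deviated together: the 18 correlations of their deviations from group means were 0.223 to 0.403. The 36 pairs with different numbers had -0.27 to -0.0241. Deviations of 3 libraries from their own mean cancel out, so these negative values follow in part from the positive ones and are no separate comparison. All 18 were over 0.1, so the numbers were taken to pair the samples in the fit with a replicate block. The fit used throughout holds group means only and leaves this pairing out. With the block, members called for leflunomide in tif1γ KD embryos went from 1 to 12, and for the interaction from 0 to 5. The design text says that clutches were divided between treatments, but not what a number marks. Coding length and promoter sequence were not used here.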

Additional observations from a re-analysis of the deposited data

Results flagged for a closer look

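The response of 5 members to leflunomide differed between tif1γ KD and control embryos by an interaction test with the replicate number as a block, and these are listed by the difference in log2 change. These 5 are 6.67% of the 75 members, near the 4.99% of all tested genes called by the same test. They were mrpl42 at 0.516, mrpl44 at 0.467, mrpl36 at 0.429, mrps30 at 0.397 and mrps5 at 0.349. In all 5 genes the value is positive, so the change with leflunomide was less negative in tif1γ KD embryos than in control embryos. In mrpl44, for example, the change was -0.17 ± 0.077 in tif1γ KD embryos and -0.63 ± 0.076 in control embryos. Without the block none of the 5 passed, with adjusted p-values of 0.121 for mrpl42 and mrpl44, 0.209 for mrps30, 0.212 for mrpl36 and 0.221 for mrps5 (edgeR's quasi-likelihood test). The cause of the difference was not tested.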

How the results depend on the processing

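Of the 94 calls of members, 0 reversed under any of the 22 alternatives, and 12 of 19, 3 of 19, 0 of 1 and 19 of 55 calls held under all of them (knockdown in DMSO, knockdown in leflunomide, leflunomide in tif1γ KD embryos, leflunomide in control embryos). With library totals, calls for leflunomide in control embryos were 28 members, for leflunomide in tif1γ KD embryos 66 genes, and for the interaction 3 genes. Leflunomide in tif1γ KD embryos gave 132 genes in the fit used throughout, 611 with DESeq2, 40 with the 2 groups alone and 1518 with the replicate block, and for members 1, 7, 0 and 12 (2 with no filter). The interaction gave 0 genes and 0 members, 1 gene with no filter, 343 genes and 1 member with DESeq2, and 1067 genes and 5 members with the replicate block. With the block the knockdown gave 9031 genes and 27 members in DMSO and 7215 and 23 in leflunomide, and leflunomide in control embryos 6709 and 59, and no call of a member was lost or changed direction. Leaving out libraries or numbers gave 4720 to 6979 genes and 13 to 20 members for the knockdown in DMSO, 3006 to 5289 and 5 to 19 in leflunomide, 2114 to 4641 and 23 to 55 for leflunomide in control embryos, 0 to 208 and 0 to 2 in tif1γ KD embryos, and 0 members for the interaction. The causes were not tested. Low counts limit the precision for mrpl58, mrpl48 and mrpl53.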
